A study of Mus musculus with 17 samples.

Results

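Caseins, whey proteins and other milk secretion genes were examined in mammary glands of 4 mouse genotypes. The 10 genes were Csn1s1, Csn2, Csn1s2a, Csn1s2b, Csn3, Wap, Lalba, Glycam1, Btn1a1 and Lao1, taken by name from the 30843 loci of the authors' table, and each name matched 1 locus. The glands came from nulliparous C57Bl/6 females, and polyadenylated RNA was sequenced with single reads in some libraries and with read pairs in others. WT mice are labelled wild type. AROM mice are labelled tet-op-CYP19A1MMTV-rtTA, a tetracycline-operator transgene for aromatase, the enzyme that makes estrogens from androgens. CERM mice are labelled tet-op-Esr1MMTV-rtTA, with estrogen receptor alpha as the transgene. BRCA mice are labelled Brca1fl11/fl11/MMTV-Cre/p53+/-, a conditional Brca1 deletion on a background heterozygous for p53. In the AROM, CERM and BRCA mice the MMTV promoter drives rtTA or Cre; it is active mainly in mammary epithelium, and not in every cell of a whole gland. The labels give neither an age nor a drug treatment, and they do not say whether a library is 1 mouse.

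Milk proteins are made by luminal alveolar cells, and in virgin mice by a small part of the luminal epithelium. Prolactin acts through its receptor Prlr and Jak2 on the transcription factor Stat5a, which with Elf5 and the glucocorticoid receptor switches on casein and whey genes. The caseins form the calcium-carrying micelle of milk, whey proteins stay in solution, and butyrophilin (Btn1a1) coats the milk fat globule as it leaves the cell.

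Promoters are shown for the 3 abundant caseins that moved together and for Wap and Glycam1, which followed other patterns. RefSeq's promoter table (build GRCm38.p6) held 7 of the 10 genes; the authors' files use mm9, so no coordinate below belongs to their table. Each line gives the 250 bases before the annotated start, 5′ to 3′ on the gene's strand. Capitals mark TTCNNNGAA, the palindrome bound by Stat factors, and its longer form with 1 more N; both read the same on either strand, and no matches overlap.
Csn1s1, chr5:87665958-87666207, plus strand: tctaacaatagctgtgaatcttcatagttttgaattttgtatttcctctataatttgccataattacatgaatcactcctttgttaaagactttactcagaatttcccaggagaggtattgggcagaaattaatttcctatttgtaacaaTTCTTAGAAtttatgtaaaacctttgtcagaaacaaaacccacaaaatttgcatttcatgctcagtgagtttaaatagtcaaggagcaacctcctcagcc
Csn2, chr5:87699426-87699675, minus strand: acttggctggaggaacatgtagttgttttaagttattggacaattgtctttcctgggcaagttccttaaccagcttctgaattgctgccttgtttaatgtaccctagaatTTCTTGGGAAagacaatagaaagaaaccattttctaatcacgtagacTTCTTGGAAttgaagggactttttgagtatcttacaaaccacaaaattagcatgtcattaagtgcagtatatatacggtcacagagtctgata
Csn1s2a, chr5:87774200-87774449, plus strand: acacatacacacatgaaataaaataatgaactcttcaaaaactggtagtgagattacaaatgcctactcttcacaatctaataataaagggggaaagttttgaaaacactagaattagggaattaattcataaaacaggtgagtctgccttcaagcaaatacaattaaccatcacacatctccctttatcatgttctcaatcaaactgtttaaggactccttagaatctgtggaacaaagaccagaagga
Wap, chr11:6638650-6638899, minus strand: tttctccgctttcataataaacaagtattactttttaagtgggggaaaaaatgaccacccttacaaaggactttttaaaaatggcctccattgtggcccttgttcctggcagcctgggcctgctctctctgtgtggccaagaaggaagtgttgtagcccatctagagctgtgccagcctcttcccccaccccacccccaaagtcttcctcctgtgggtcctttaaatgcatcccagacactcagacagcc
Glycam1, chr15:103565082-103565331, minus strand: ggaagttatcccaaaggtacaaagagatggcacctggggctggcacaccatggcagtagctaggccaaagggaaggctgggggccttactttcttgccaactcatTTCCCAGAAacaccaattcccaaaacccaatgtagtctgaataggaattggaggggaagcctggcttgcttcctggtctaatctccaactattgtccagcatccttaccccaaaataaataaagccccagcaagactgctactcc

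TTCNNNGAA lay 100 to 92 bases before the start of Csn1s1, 93 to 85 bases before that of Csn2 and 145 to 137 bases before that of Glycam1. The longer form lay 140 to 131 bases before the start of Csn2. Neither form was in the windows of Csn1s2a, Wap, Lalba or Lao1. Of 32851 promoters in the table, 7.02% held TTCNNNGAA and 5.85% held the longer form in the same window. TGTTCT, a half-site of the glucocorticoid receptor, was searched on both strands and found in 1 of the 7, that of Csn1s2a, and in 16.1% of all promoters. These matches describe the letters in the window and are not measured binding sites.

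The values are FPKM, fragment counts scaled to transcript length and to the mapped fragments of the library, so levels can be set side by side between genes. The table has 1 value per genotype and layout, not per library: 17 libraries are labelled, 2 single-end for every genotype and 1 (WT), 3 (AROM), 3 (CERM) and 2 (BRCA) paired-end. No spread between replicates and no p-value can be had, the depth is unknown, and the differences reported here were not checked against replicates. Both WT columns carry decimals of a mean of 3 values (over 7 digits in 66.7% and 66.5% of the values above 0, at most 0.0307% in the other columns), although 2 and 1 WT libraries are labelled, and which values were averaged is not given. Libraries may be shared between layouts, so the 2 layouts are not independent repeats. The epithelial keratin gene Krt18 (76.7 to 227 FPKM) and the adipocyte gene Adipoq (600.0 to 1885 FPKM) marked all 8 columns as mammary gland with its fat. In bulk tissue, fewer secretory cells and less RNA per cell cannot be told apart. Esr1 stood at 8.49 and 8.41 FPKM in CERM (single-end, then paired-end) against 8.41 and 7.87 in AROM and 7.27 and 6.89 in WT, and Brca1 was higher in BRCA (3.28 and 3.29) than in WT (1.13 and 0.851). Over a whole locus these values do not check the CERM and BRCA labels, so the names below mean the columns so labelled. Trp53 was lowest in BRCA, at 12.3 and 12.1 FPKM against 41.1 and 34.5 in WT. Mouse Cyp19a1 was at most 0.0591 FPKM and does not measure the CYP19A1 transgene.

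The 3 calcium-sensitive caseins Csn2, Csn1s2a and Csn1s1 were the most abundant milk genes in every column, and all were lowest in AROM. Csn2, the beta-casein gene, stood at 6520.2 FPKM in the single-end WT column, where AROM had 764, CERM 5499.7 and BRCA 3279. Paired-end, WT had 4832 FPKM, AROM 486, CERM 3169.9 and BRCA 3027. WT stood highest and AROM far below the others in both layouts, while CERM and BRCA were apart only in the single-end columns. Csn1s2a, the gamma-casein gene, was at 5103, 554, 4411 and 2153 FPKM in single-end WT, AROM, CERM and BRCA. In the paired-end columns it was at 3994, 367, 2568 and 1996 FPKM in the same order. Csn1s1, the alpha-casein gene, was at 3647, 630.3, 2549 and 1808 FPKM in the single-end columns and at 2998, 405, 1631 and 1777 FPKM in the paired-end ones. Csn3 encodes kappa-casein, which caps the surface of the micelle. It was at 811, 159.6, 655 and 478 FPKM in single-end WT, AROM, CERM and BRCA and at 691, 88.7, 438 and 421 FPKM in the paired-end columns, the same order of genotypes at a lower level. Over the 8 columns, Pearson's r with Csn2 on the log2 scale was 0.996 for Csn1s2a, 0.995 for Csn3 and 0.992 for Csn1s1, as a description of columns that may share libraries.

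The other 6 genes split into further patterns. Lalba encodes alpha-lactalbumin, the whey protein that makes galactosyltransferase a lactose synthase. It was at 113, 68.2, 227 and 46.3 FPKM in single-end WT, AROM, CERM and BRCA and at 119, 48.0, 132 and 43.1 FPKM in the paired-end columns, highest in CERM and lowest in BRCA in both. Btn1a1 was at 47.0, 25.03, 102 and 18.3 FPKM in the single-end columns and at 46.5, 15.2, 67.0 and 17.5 FPKM in the paired-end ones. Lao1, the gene of an L-amino acid oxidase secreted in mouse milk, was at 13.6, 2.98, 26.7 and 4.37 FPKM and, paired-end, at 12.05, 2.54, 16.6 and 4.26 FPKM. These 3 genes were highest in CERM, with WT next and both AROM and BRCA below WT. Glycam1 encodes a secreted mucin-like glycoprotein of milk, also made by the high endothelial venules of lymph nodes. It was at 518 and 512 FPKM in single-end WT and BRCA but at 4.99 in AROM and 65.5 in CERM, and at 450.2 and 458 against 5.50 and 37.2 FPKM in the paired-end columns. Wap, the whey acidic protein gene, was at 143, 3.95, 109 and 225 FPKM in single-end WT, AROM, CERM and BRCA and at 132, 57.1, 61.8 and 206 FPKM in the paired-end columns. Csn1s2b, a minor calcium-sensitive casein gene, was at 1.54, 0.183, 4.82 and 13.7 FPKM and, paired-end, at 1.27, 4.19, 2.66 and 12.5 FPKM. Wap and Csn1s2b were the 2 genes highest in BRCA in both layouts. Their r with Csn2 was 0.66 and 0.18, against 0.57 for Lalba, 0.63 for Btn1a1, 0.79 for Lao1 and 0.83 for Glycam1.

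**Figure D1:**
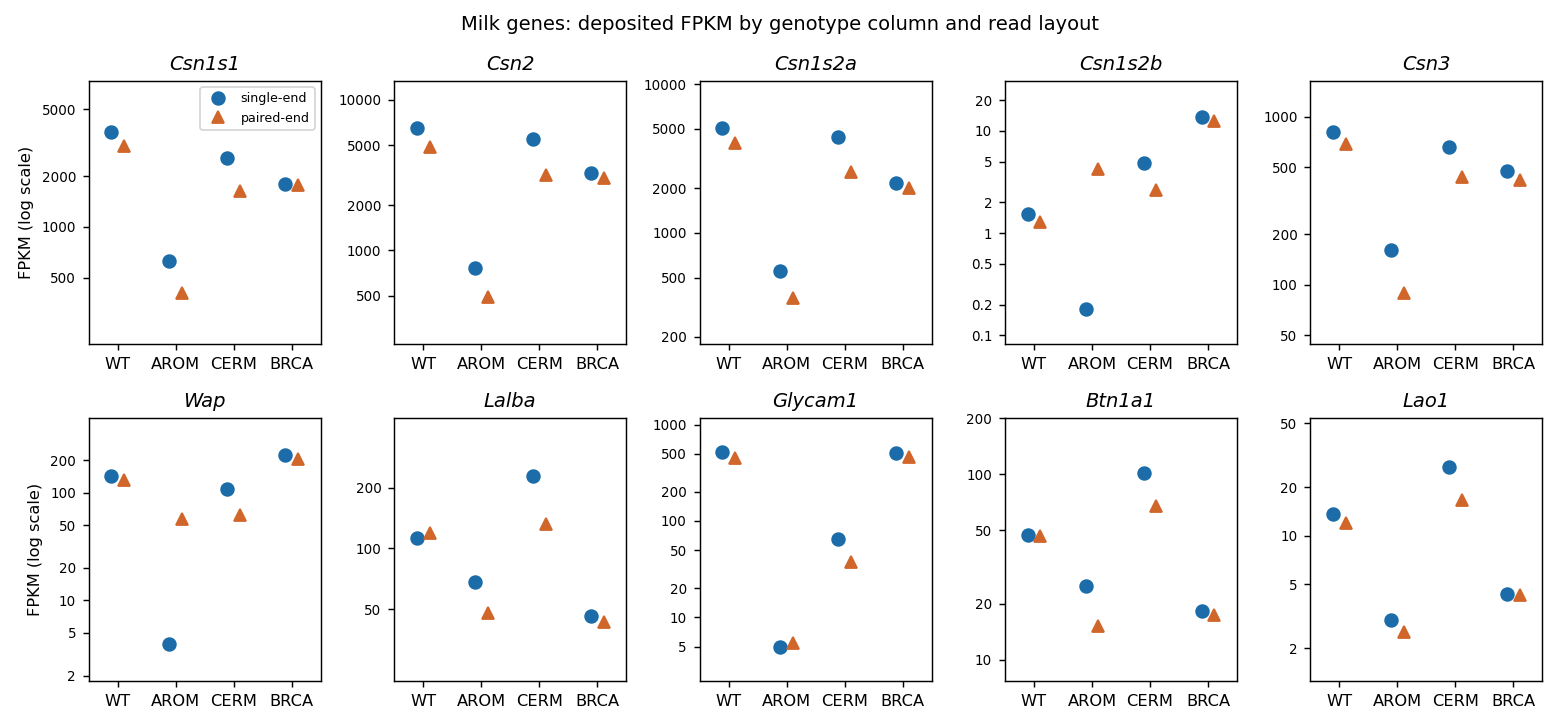
Deposited FPKM (log scale, 1 panel per gene) of the 10 milk genes in the WT, AROM, CERM and BRCA columns, with circles for single-end and triangles for paired-end columns and no error bars because each column is 1 value. Csn2 runs from 486 to 6520.2 FPKM with both AROM columns lowest, and Glycam1 lies between 4.99 and 65.5 FPKM in AROM and CERM but between 450.2 and 518 FPKM in WT and BRCA.

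The AROM columns were compared with WT to see how milk genes stood in glands labelled with the aromatase transgene. Differences were taken as the log2 ratio of FPKM + 1, which understates the ratio of low genes, and a gene was called when at least 2-fold apart. In the single-end columns 8 of 10 milk genes were called lower in AROM, against 1.7% of the 11715 genes analysed, and none higher, against 2.39%. In the paired-end columns 9 of 10 were called lower, against 2.83% of 11535 genes, and 1, Csn1s2b, higher, against 2.04%. All 10 milk genes passed the filter of at least 1 FPKM in at least 2 of the 4 columns of a layout. Glycam1 was 104 times lower (log2 -6.44) in the single-end and 81.8 times lower (-6.12) in the paired-end columns. Csn1s2a was 9.21 and 10.9 times lower and Csn2 8.53 and 9.94 times lower in AROM. Csn1s1 (5.79 and 7.40 times lower) and Csn3 (5.08 and 7.79 times) followed, so the 4 abundant caseins stood between 5.08 and 10.9 times below WT. Lalba and Btn1a1 were nearer to WT, 1.66 and 1.88 times lower in the single-end and 2.49 and 3.05 times lower in the paired-end columns. The median log2 ratio of the 10 genes was -2.43 single-end and -2.38 paired-end, where the median of all genes analysed was -0.00 and -0.08.

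Luminal epithelial genes were lower in AROM too, by less than the 4 abundant caseins. Of 13 such genes analysed, among them Krt18, Krt8, Epcam and Spint2, 6 were called lower in the single-end and 10 in the paired-end columns, with medians of -0.99 and -1.52. Relative to that median, the log2 ratio of Csn1s2a was -2.21 single-end and -1.92 paired-end, that of Csn2 -2.10 and -1.79, that of Csn1s1 -1.54 and -1.37 and that of Csn3 -1.35 and -1.43. The ratios of 7 milk genes in the single-end and 6 in the paired-end columns lay below that of every luminal gene. Lalba and Btn1a1 did not stand below the luminal genes in this way, at 0.27 and 0.11 above their median single-end and at 0.22 and -0.03 from it paired-end. Nor did Csn1s2b, at -0.11 from it single-end and 2.71 paired-end. Wap did so single-end (-3.87) but not paired-end (0.32). Other tissue also moved with the comparison. Summed FPKM of 9 skeletal muscle genes in AROM was 32910.0 against 11637 in WT single-end but 21474 against 19394 paired-end. That of 8 white adipocyte genes was 24459.5 against 16143 single-end and 30220.1 against 12418 paired-end. Their part in the milk gene differences was not tested.

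In CERM the milk genes went both ways. In the single-end columns 3 of 10, Csn1s2b, Btn1a1 and Lalba, were called higher than in WT, against 3.34% of the genes analysed. Called lower was 1, Glycam1, against 0.999%. All 3 higher calls ended with a pseudocount of 10 FPKM, at log2 0.36, 0.97 and 0.95 in that order. Lalba was just past the limit (log2 1.002) and within it with the WT column of the other layout (0.92). In the paired-end columns 2, Glycam1 and Wap, were called lower, against 0.824%, and none higher, against 3.51%. The Wap call (log2 -1.08) ended with a pseudocount of 10 FPKM (-0.985) and relative to the luminal median (-0.64). Glycam1 was the gene called lower in both layouts, 7.90 times single-end and 12.1 times paired-end. Btn1a1 was 2.16 times WT in the single-end and 1.44 times in the paired-end columns. For Lalba the ratio was 2.01 and 1.11, and for Lao1 1.96 and 1.38, above WT in both layouts. The 4 abundant caseins stood below WT in both layouts without passing 2-fold, from 0.864 times for Csn1s2a single-end to 0.544 times for Csn1s1 paired-end. This depended on the WT column. With that of the other layout, single-end Csn2 (log2 0.19) and Csn1s2a (0.14) lay above WT. Paired-end Csn1s1 and Csn2 (1631 and 3170 FPKM) were then past 2-fold lower, against 3647 and 6520 FPKM in single-end WT. Wap was at 0.760 times WT single-end and 0.468 times paired-end. The median log2 ratio of the 10 genes was -0.23 and -0.62, and that of the luminal genes -0.58 and -0.45, with none of the 13 luminal genes called. Summed FPKM of the skeletal muscle genes in CERM was 35322 against 11637 in WT single-end and 27028 against 19394 paired-end. That of 7 macrophage genes was 347 against 317 single-end and 488 against 242 paired-end. In paired-end CERM 5 of 7 fibroblast and matrix genes were called higher (median 1.30, summed FPKM 1455 against 572). In single-end CERM none was (median -0.04, summed FPKM 929 against 893). Their part in these differences was not tested.

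In BRCA the genes Lao1, Btn1a1, Lalba and Csn1s2a were called lower than WT in both layouts, and no luminal gene was. In the single-end columns 5 of 10, Lao1, Btn1a1, Lalba, Csn1s2a and Csn1s1, were called lower, against 1.94% of the genes analysed, and Csn1s2b was called higher, against 2.97%. In the paired-end columns 4 were called lower, against 1.29%, and Csn1s2b again higher, against 4.36%. Lao1 was 3.12 times lower single-end and 2.83 times lower paired-end, Btn1a1 2.57 and 2.65 times and Lalba 2.44 and 2.77 times. Csn1s2a was 2.37 and 2.001 times lower, just past the limit in the paired-end columns. Single-end, Csn1s1 (log2 -1.01) and Csn2 (-0.99) lay on either side of the limit, and paired-end both were within it, at -0.75 and -0.67. Under quantile normalization Csn1s2a was at -0.70 and -0.52 and Csn1s1 single-end at -0.82, so these casein calls ended. With the WT column of the other layout the single-end ratios of Csn1s2a (-0.89) and Csn1s1 (-0.73) were within the limit too. A pseudocount of 10 FPKM ended the calls of Lao1 in both layouts (-0.72 and -0.63). It also ended the paired-end calls of Csn1s2a (-0.997) and Csn1s2b (0.994). Csn1s2b was 8.94 times WT single-end and 9.81 times paired-end. Wap stood at 1.57 and 1.56 times WT and Glycam1 at 0.989 and 1.02 times. The luminal median was 0.14 and 0.41, with 1 of 13 luminal genes called higher single-end and 2 paired-end, and 7 of the 10 milk genes had a ratio below that of every luminal gene in both layouts. In BRCA, summed FPKM of 7 B cell genes was 44.2 against 6.45 in WT single-end and 42.2 against 4.30 paired-end, and that of 7 macrophage genes 559 against 317 and 551 against 242. Fibroblast and matrix genes were called higher in 1 of 7 single-end and 4 of 7 paired-end, with medians of 0.40 and 1.09. Their part in the milk gene differences was not tested.

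**Figure D2:**
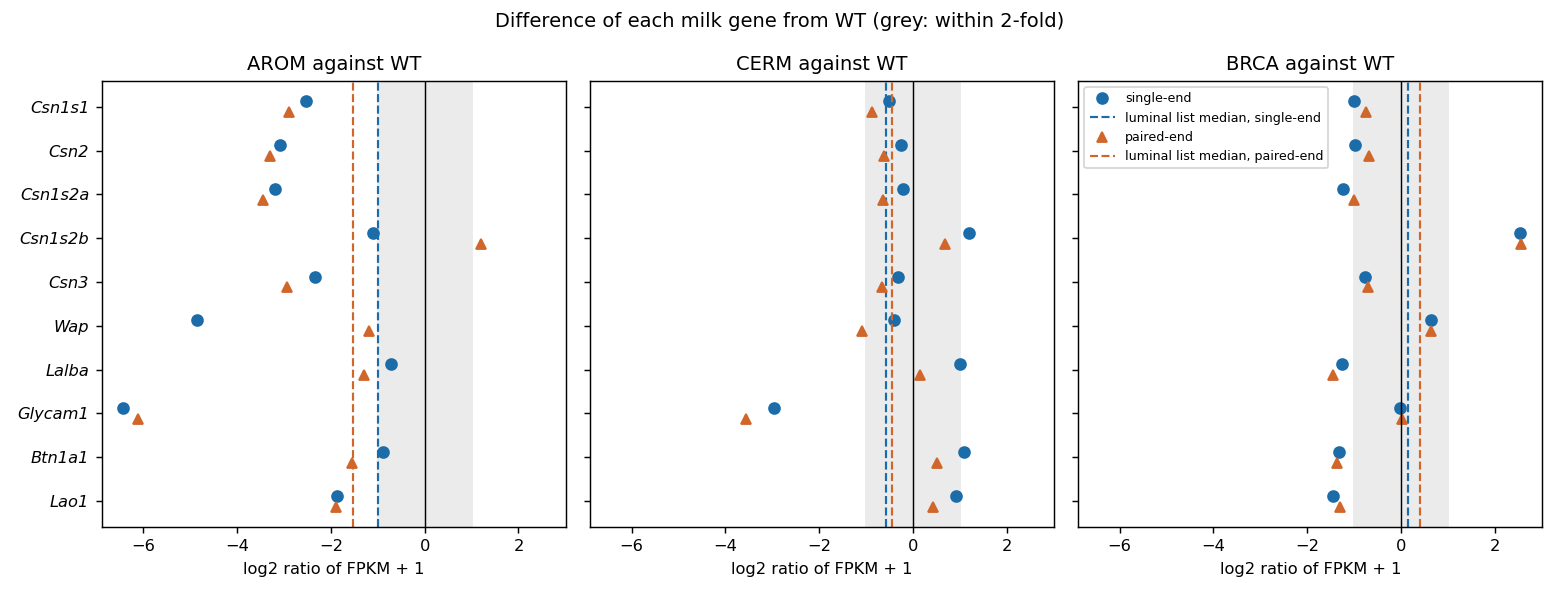
Log2 ratio of FPKM + 1 of each milk gene against WT in AROM, CERM and BRCA, with circles for single-end and triangles for paired-end columns, dashed lines for the median of 13 luminal epithelial genes in each layout, and a grey band for ratios within 2-fold. The 4 abundant caseins lie left of the luminal lines in AROM and BRCA, Csn1s2b lies at 2.54 and 2.57 in BRCA, and its AROM symbols fall on opposite sides of 0, at -1.10 and 1.19.

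The comparisons with WT share the WT columns, so the genotypes were also set against each other. CERM against AROM had all 10 milk genes called higher in CERM in the single-end columns, against 1.46% of the genes analysed, and 8 in the paired-end columns, against 3.83%. None was called lower, against 0.819% and 2.29%. Luminal genes stood higher in CERM too, with medians of 0.37 and 0.996. Of the 13, none was called single-end and 6 were called higher paired-end. Relative to these medians all 10 milk genes were at least 2-fold higher single-end. Paired-end 7 were, Lalba was at 0.45, and 1 gene, Csn1s2b (-1.50), was at least 2-fold lower. Csn1s2a was 7.96 and 6.997 times higher in CERM, Csn2 7.19 and 6.52 times and Lao1 8.98 and 6.56 times. In the paired-end columns Wap (1.08 times) and Csn1s2b (0.634 times) were the 2 genes not called. BRCA against AROM had 7 genes called higher in BRCA in each layout, against 4.68% and 9.97%, and none lower, against 3.13% and 4.5%. Luminal genes stood higher in BRCA as well, with 9 of 13 called single-end and 13 of 13 paired-end and medians of 1.18 and 1.82. Relative to these medians 3 milk genes were at least 2-fold higher and 2 lower single-end, and 1 higher and 3 lower paired-end. Glycam1 was 103 and 83.3 times higher there. Lalba, Btn1a1 and Lao1 were not called, with ratios from 0.680 to 1.68. BRCA against CERM separated the patterns: Glycam1 (7.82 and 12.3 times), Csn1s2b (2.85 and 4.69 times) and Wap (2.07 and 3.33 times) were called higher in BRCA in both layouts, against 2.37% and 2.3%. The single-end call of Wap ended under median-ratio scaling (log2 0.97), and with a pseudocount of 10 FPKM those of Wap single-end (0.98) and of Csn1s2b in both layouts (0.68 and 0.83) did. Relative to the luminal median neither gene was called, Wap at 0.31 and 0.81 and Csn1s2b at 0.61 and 0.97. Lower in BRCA were 4 genes single-end, against 2.79%, and 3 paired-end, against 2.12%. Btn1a1 was 5.57 and 3.83 times lower, Lao1 6.12 and 3.91 times and Lalba 4.90 and 3.07 times, while Csn2 was 1.68 times lower single-end and 1.05 times paired-end. In the paired-end columns the median of all genes analysed was itself shifted, by 0.21 in BRCA and 0.18 in CERM against AROM and by 0.10 in BRCA against WT, so higher calls there include this shift.

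Between layouts of the same genotype, Wap and Csn1s2b in AROM were the 2 values at least 2-fold apart, and the median shift of the 10 genes was -0.72 on the log2 scale in CERM and -0.54 in AROM. Wap was 14.5 times and Csn1s2b 22.9 times higher in the paired-end than in the single-end AROM column. The other 8 genes in AROM lay between 0.556 and 1.10 times their single-end value. Of the 11408 genes analysed in both layouts, 1.19% were at least 2-fold apart in AROM. In CERM all 10 milk genes were lower in the paired-end column, at 0.551 to 0.668 times the single-end value, where the median log2 ratio of all genes was -0.07. In WT they lay between 0.741 and 1.06 times, and in BRCA between 0.881 and 0.983 times. Which mice stand in which layout is not given for any genotype.

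**Figure D3:**
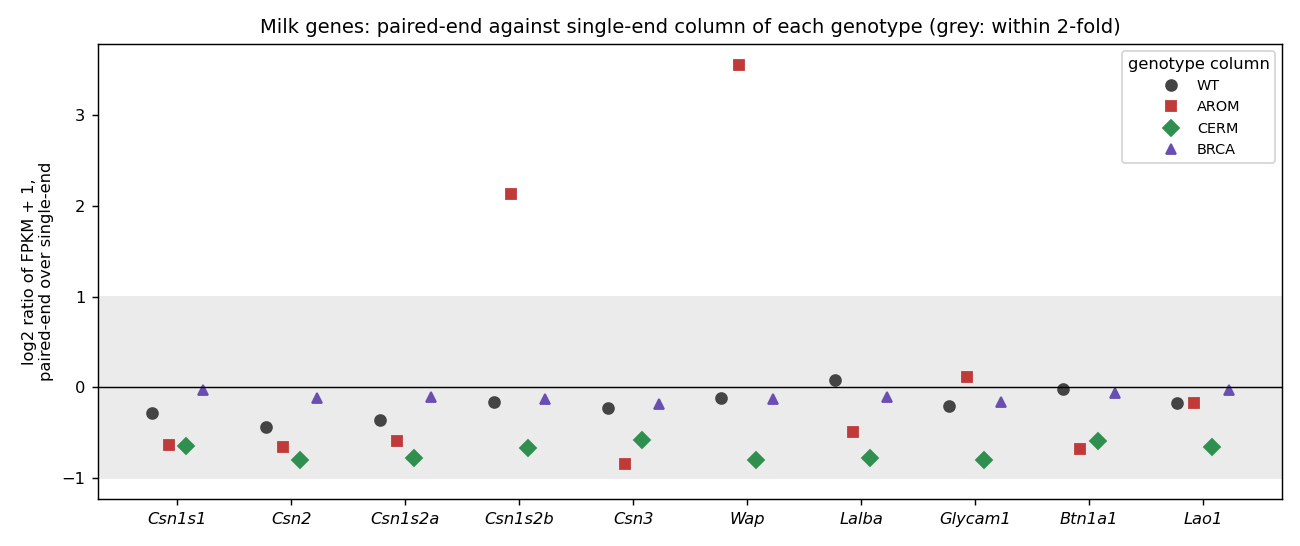
Log2 ratio of FPKM + 1 of the paired-end over the single-end column of the same genotype for each milk gene, with 1 symbol per genotype and a grey band for ratios within 2-fold. Wap at 3.55 and Csn1s2b at 2.13 in AROM lie outside the band, and all CERM symbols lie between -0.80 and -0.58.

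The mix of caseins changed little beside the change in their sum. Summed over the 5 caseins, single-end WT, AROM, CERM and BRCA had 16083, 2108, 13119 and 7731 FPKM, and paired-end 12517, 1351, 7809.6 and 7233. Csn2 made up 40.5% of this sum in single-end WT and between 36.0% and 42.4% in all 8 columns. Csn1s2a ranged from 26.3% to 33.6%, and Csn1s1 from 19.4% in single-end CERM to 30.0% in paired-end AROM. AROM had the highest share of Csn1s1 and of Csn3 (7.57% single-end, 6.56% paired-end) and the lowest of Csn2 in both layouts. Csn1s2b had the smallest share in every column, at 0.00956% in single-end WT, 0.178% and 0.172% in BRCA and 0.00867% and 0.310% in AROM.

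The casein genes lie together on mouse chromosome 5, and the protein-coding neighbours in RefSeq's order were listed whatever their values. Of 13 neighbours (5 on each side and 3 between the caseins), 10 had a row of their own in the table. For 9 of these the highest of the 8 values was below 1 FPKM, among them Odam, which lies between Csn1s2b and Csn3 (at most 0.457 FPKM). The exception was Sult1d1, a sulfotransferase gene beside the cluster. It was at 1.51 and 1.84 FPKM in BRCA, 0.464 and 0.354 in WT, 0.197 and 0.124 in CERM and 0.101 and 0.0553 in AROM. No neighbour with a row reached the level of the 4 abundant caseins, while Sult1d1 in BRCA stood near Csn1s2b in WT (1.54 and 1.27 FPKM).

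Other genes of milk secretion and its control were taken from lists made by function. Of 18 further secretion genes 13 were analysed, and 6 were called lower in AROM in each layout and none higher, with medians of -0.90 and -0.65. The same 6 genes were lower in both: B4galt1, whose enzyme pairs with alpha-lactalbumin, Spp1 (osteopontin), Slc34a2 (phosphate transport), Cel, Muc15 and Olah, with log2 ratios from -1.11 (B4galt1) to -1.88 (Spp1) single-end and from -1.15 (B4galt1) to -2.23 (Muc15) paired-end. The most abundant genes of the list, Mfge8, Plin2, Lcn2 and Fabp3, were not called in AROM. Mfge8, which encodes a milk fat globule protein, was at 373 and 273 FPKM in AROM against 411 and 362 in WT. Plin2, the gene of a lipid droplet coat protein that adipocytes also make, was at 228 and 361 FPKM in AROM against 424 and 359 in WT. Lcn2, an iron-carrier binding protein gene, was at 543 and 467 FPKM in BRCA against 241 and 185 in WT. In CERM no gene of this list was called single-end and 2 were lower paired-end; in BRCA 2 were higher in each layout and 2 (single-end) and 1 (paired-end) lower.

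Of 16 genes of prolactin signalling and alveolar control, 15 were analysed, and 4 were called lower in AROM in each layout. Elf5, the alveolar fate factor gene, was at 39.0 and 21.1 FPKM in AROM against 108 and 90.0 in WT, with 83.6 and 59.5 in CERM and 98.3 and 95.8 in BRCA. Elf5 in BRCA was near WT. The part of Elf5 or of other genes of this list in the milk gene differences was not tested. Stat5a was at 24.6 and 22.4 FPKM in AROM, 23.8 and 21.5 in CERM and 22.7 and 25.1 in BRCA against 36.1 and 33.9 in WT, not called in any of them. Prlr was at 9.20 and 5.49 FPKM in AROM and 9.75 and 9.15 in BRCA against 10.2 and 7.96 in WT. CERM had 9.87 FPKM single-end but 18.7 paired-end, and Prlr was the gene of this list called higher there, while Tnfsf11 was called lower (5.86 against 13.2 FPKM). In BRCA 1 gene of the list was called in each layout, lower: Tnfsf11 again, the gene of RANK ligand, at 1.15 and 1.12 FPKM against 15.4 and 13.2 in WT. Tnfsf11 was also among the genes called lower in AROM in both layouts, at 4.83 and 2.51 FPKM. In single-end CERM it was at 7.28 FPKM, not called.

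Of 9 fatty acid synthesis genes analysed, shared by secretory cells and adipocytes, 7 were called lower in BRCA single-end and 6 paired-end, with medians of -1.25 and -1.08. White adipocyte genes stood below WT in BRCA too, 8 of 8 single-end and 6 of 8 paired-end, with medians of -0.62 and -0.42, summed FPKM of 10289.8 against 16143 and 9577 against 12418, and 1 called lower in each layout, the adipokine gene Retn (96.7 against 858 and 87.8 against 616 FPKM). Their part in the difference was not tested. In AROM 1 was called lower in each layout, and in CERM 1 single-end and 5 paired-end. Scd1, the stearoyl-CoA desaturase gene, was at 3370.3 and 3338 FPKM in BRCA, 3323 and 2477 in CERM and 4314 and 7702 in AROM against 7561 and 6383 in WT.

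**Figure D4:**
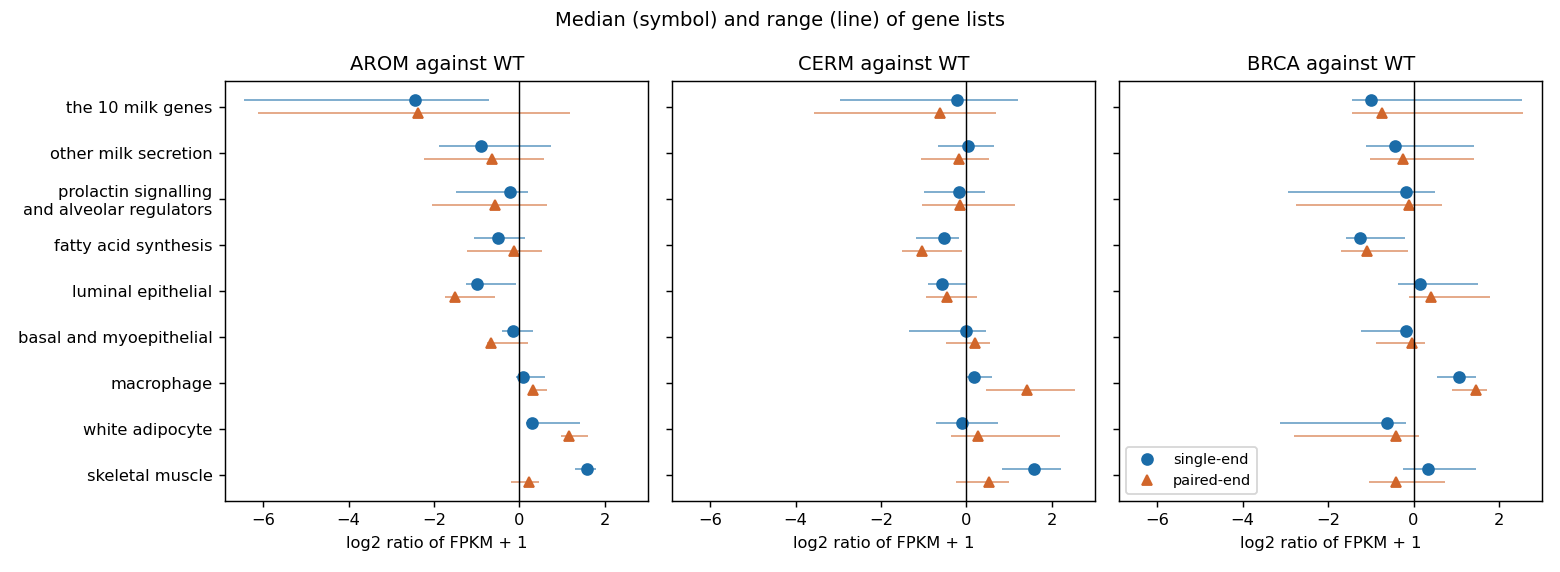
Median (symbol) and range (line) of the log2 ratio of FPKM + 1 against WT for the 10 milk genes and 8 other gene lists in AROM, CERM and BRCA, with circles for single-end and triangles for paired-end columns. The milk gene median in AROM, -2.43 and -2.38, lies left of the luminal epithelial one, -0.99 and -1.52, and the skeletal muscle median differs between layouts, 1.58 against 0.22.

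Glycam1 is also a gene of lymph node venules, so markers of these were read beside it. Of 7 listed, 6 had a row of their own and 2, Madcam1 and Cxcl13, passed the filter. Summed over the 6, single-end WT, AROM, CERM and BRCA had 13.3, 5.15, 6.56 and 22.6 FPKM, and paired-end 9.92, 3.37, 4.44 and 20.4. Madcam1, an addressin gene, was at 10.2 and 8.06 FPKM in WT against 1.77 and 0.827 in AROM, 2.36 and 1.64 in CERM and 1.47 and 1.35 in BRCA. Chst4, the sulfotransferase gene of high endothelial venules, was at most 0.0105 FPKM outside BRCA and at 0.798 and 0.977 FPKM in BRCA. The B cell follicle gene Cr2 was likewise at most 0.0845 FPKM outside BRCA and at 1.53 and 1.48 in it. WT and BRCA were within 1.02 times of each other in Glycam1. BRCA stood below WT in Madcam1 and above it in Chst4 and Cr2, which did not pass the filter. Cxcl13 was above WT in BRCA too, at 15.2 and 13.4 against 2.59 and 1.56 FPKM. The part of lymph node venules in the Glycam1 values was not tested. Of 6 salivary gland genes with a row, Amy1, an amylase gene, was at 62.2 to 148 FPKM and Bhlha15, a factor of secretory cells, at 2.29 to 5.49 FPKM, while Smr2, Prol1, Smr3a and Pip were at most 0.105 FPKM in any column. Amy1 was highest in AROM (136 and 148 FPKM) and lowest in BRCA (65.4 and 62.2). Its part in the milk gene differences was not tested.

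The genes with the pattern most like the mean of the 10 milk genes were ranked by Pearson's r of log2(FPKM + 1) over the 8 columns, as a description of columns that share a layout and may share libraries. The 10 highest were Cd8a (r = 0.983), Pigr (0.979), Cish (0.975), Fam46c, Npnt, Ankrd56, Pdzk1ip1, Col9a1, Cd5l and Calml3 (0.952). Pigr, which encodes the carrier of immunoglobulin A into milk, had 1.24 and 0.721 FPKM in AROM against 21.5 and 18.2 in WT, 21.9 and 13.5 in CERM and 20.4 and 19.7 in BRCA. Cish, a feedback inhibitor gene induced by Stat5, had 8.14 and 8.01 FPKM in AROM against 17.3 and 16.2 in WT, 16.5 and 11.6 in CERM and 15.3 and 15.1 in BRCA. Cd8a, a gene of cytotoxic T cells, was at 2.84 and 2.43 FPKM in WT and at 1.09 and 0.976 in AROM. All 10 were lowest in AROM in both layouts, which follows from choosing them by likeness to genes that mostly are.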

How the data were processed

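The FPKM values were deposited by the authors, 1 column per genotype and layout. Build mm9 and the tools Cufflinks, TopHat, Trim Galore and FastQC are named in the submitters' processing notes. Sources used here do not give versions, annotation or the way libraries were combined. Of 30843 loci, 20420 had 1 gene symbol of their own; 11715 (single-end) and 11535 (paired-end) of these reached 1 FPKM in at least 2 of the 4 columns of the layout and were analysed. Log2 ratios of FPKM + 1 were computed with numpy 2.4.6 and pandas 2.3.3 for 6 pairs of genotypes in each layout. Values were used as deposited, and genes were called at 2-fold. How often calls on low values or near the limit would differ between replicates was not tested. No test could be run on single columns. The depth per library is unknown. The 10 genes and all lists were chosen with earlier results of these data known. Genes named from a list were up to 4 of highest mean FPKM, plus Prlr, Stat5a and Elf5, the casein neighbours and the 10 genes of most like pattern. B4galt1, Spp1, Slc34a2, Cel, Muc15, Olah, Retn, Tnfsf11, Chst4, Smr3a, Pip and the series' engineered genes were named outside this rule or after their values were seen. List genes with several rows were left out. Lists of basal and myoepithelial, T cell, fibroblast and endothelial genes were also read: in AROM against WT their medians were -0.14, -0.73, 0.37 and 0.09 single-end and -0.66, -0.52, 0.74 and -0.27 paired-end. Other scalings, pseudocounts, filters and WT columns were tried.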

Additional observations from a re-analysis of the deposited data

Results flagged for a closer look

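Csn1s2b was past 2-fold in opposite directions in AROM against WT, lower in the single-end columns (log2 ratio of FPKM + 1 of -1.10, 0.183 against 1.54 FPKM) and higher in the paired-end columns (1.19, 4.19 against 1.27 FPKM). The difference between layouts was not tested, since each column is 1 value. Wap, in the same columns, was lower in both layouts but by 36.2 times single-end and 2.31 times paired-end.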

How the results depend on the processing

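Of 90 recounts of the milk genes at least 2-fold apart, 81 stayed within 1.5 times the reported count. All 12 did so under each of median-ratio scaling, quantile normalization and a pseudocount of 0.1 FPKM. The 12 without a filter are among the 81 but could not differ, since all 10 milk genes passed the filter. A count does not show which genes or which direction. With a pseudocount of 10 FPKM the count was 1 in place of 4 for CERM against WT single-end, 1 in place of 2 paired-end, and 2 in place of 5 for BRCA against WT paired-end. With 1.5-fold as the limit it was 7 for CERM and 9 for BRCA against WT paired-end. Relative to the luminal epithelial median, which moves every ratio by construction, the count paired-end was 6 in place of 10 for AROM against WT, 8 in place of 5 for BRCA against WT and 4 in place of 7 for BRCA against AROM. Directions moved there as well: BRCA against CERM single-end went from 3 higher and 4 lower to 1 and 7. With the WT column of the other layout, an alternative chosen after seeing the data, CERM against WT paired-end had 4 genes in place of 2; the cause was not tested.

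Of the 80 single-gene calls, 22 ended relative to the luminal median, 18 with a pseudocount of 10 FPKM, 4 under quantile normalization and 1 under median-ratio scaling; with the other WT column 4 of 35 did, among them Csn1s2b in AROM (-0.94) and Lalba in CERM (0.92) single-end. Relative to the luminal median 16 of 120 ratios changed sign. Called as reported were 3 of these, all paired-end: Wap (0.32) and Lalba (0.22) in AROM against WT and Csn1s2b in BRCA against AROM (-0.45). Of those not called before, Btn1a1 (-1.63) and Lao1 (-1.25) in BRCA against AROM paired-end passed the limit in the opposite direction. Leaving out libraries was not run, since single libraries have no columns. No paired analysis was possible because the columns carry no replicate number. Depth is unknown, so no limit from counting error can be set on low values. The lowest milk gene of a column was Csn1s2b in 5 columns and Lao1 in 3. The AROM ratios of Wap and Glycam1 rest on low values too. Wap was at 3.95 FPKM in single-end AROM, and Glycam1 at 4.99 FPKM single-end and 5.50 FPKM paired-end.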
